A study of Mus musculus with 16 samples.

Results

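Neurexins, neuroligins and LRRTMs are cell-surface proteins that hold synapses together and help to organise them. The group described here is fixed by gene symbol, with no threshold on a value, though it was proposed with earlier results of these data known, and it holds 9 genes of the 22440 in each table. They are 2 neurexins (Nrxn2 and Nrxn3), 3 neuroligins (Nlgn1, Nlgn2 and Nlgn3) and 4 leucine-rich repeat transmembrane proteins (Lrrtm1, Lrrtm2, Lrrtm3 and Lrrtm4). All 9 symbols were found in all 4 RNA libraries.

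The RNA came from primary cultures of cortical neurons of Swiss-Webster mouse embryos at embryonic day 16. The treated cultures received either etoposide at 5 µM, with no duration in the labels, or NMDA, which the labels give as 50 µM for 10 min and 10 min of recovery for most experiments. Each had its own control culture, called the etoposide control and the NMDA control below, with no treatment named in its title. Etoposide holds type II topoisomerases on the DNA they have cut, NMDA opens a class of glutamate receptor, and the series asks how DNA breaks relate to neuronal gene expression. Each group had 1 library, so there was no replicate check, no test and no p-value. The 12 chromatin samples of the series were not analysed here.

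Neurexins sit on the presynaptic side and reach across the cleft. Neuroligins and LRRTMs are postsynaptic partners of neurexins, which they bind across the cleft, and they recruit scaffolds and receptors on their own side. In the cortex, Nlgn1 is known from excitatory synapses, Nlgn2 from inhibitory synapses and Nlgn3 from both, while LRRTMs are known from excitatory synapses and bind AMPA-type glutamate receptors. Neurexin genes have separate promoters for a long alpha form and a short beta form, and the values here are per gene and do not separate them.

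The promoters of 4 of these genes show how differently they are laid out. RefSeq promoter windows (build GRCm38.p6 table) were given for 6 of the 9 genes, 10 windows in all. The 250 bases before each start were matched to the mouse genome build of the expression tables, mm9, where each of the 10 had 1 exact match on the strand of its gene. They are printed 5′ to 3′ on the strand of the gene, and capitals mark the motifs named below. Nlgn1 and Nlgn2 are shown as the neuroligins with the lowest and highest ratio with etoposide, Lrrtm1 because it starts inside another gene, and Nrxn3 because this start lies far inside the gene.
Nlgn1, chr3:26230832-26231081, minus strand: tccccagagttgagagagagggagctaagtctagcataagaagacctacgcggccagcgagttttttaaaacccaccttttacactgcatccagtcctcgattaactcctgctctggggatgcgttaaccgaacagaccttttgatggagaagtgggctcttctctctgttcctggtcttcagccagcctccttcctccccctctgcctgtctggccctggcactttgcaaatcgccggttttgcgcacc
Nlgn2, chr11:69651287-69651536, minus strand: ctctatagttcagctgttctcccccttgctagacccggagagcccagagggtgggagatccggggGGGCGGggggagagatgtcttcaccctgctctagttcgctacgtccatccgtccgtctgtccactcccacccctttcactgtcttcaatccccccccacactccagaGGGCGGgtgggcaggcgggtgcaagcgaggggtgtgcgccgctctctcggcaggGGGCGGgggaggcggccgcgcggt
Lrrtm1, chr6:77192221-77192470, plus strand: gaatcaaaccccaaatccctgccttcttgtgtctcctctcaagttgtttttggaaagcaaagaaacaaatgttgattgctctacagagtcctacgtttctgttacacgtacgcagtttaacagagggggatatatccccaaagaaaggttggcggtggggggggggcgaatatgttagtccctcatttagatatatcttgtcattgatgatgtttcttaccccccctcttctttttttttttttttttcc
Nrxn3, chr12:91050673-91050922, plus strand: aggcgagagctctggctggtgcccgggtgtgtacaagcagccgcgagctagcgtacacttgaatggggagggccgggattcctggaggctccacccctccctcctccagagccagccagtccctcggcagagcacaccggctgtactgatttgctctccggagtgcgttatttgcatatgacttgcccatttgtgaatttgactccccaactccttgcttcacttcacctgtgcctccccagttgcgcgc
The Nlgn1 window shown ends where the locus given in the tables begins, read along the gene. The listed span of 900.07 kb is thus the distance from this start. Another Nlgn1 start, whose window is not shown, lies 177923 bases inside the listed locus. The Nlgn2 start lies 2935 bases upstream of its listed locus. The Nrxn3 start shown leaves 522.45 kb to the end of the gene, of 1612.1 kb in all.

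Base composition separated the Nlgn2 window from those of Nlgn1. Of the windows shown, G and C made up 67.6% for Nlgn2, 53.6% for Nlgn1, 42.0% for Lrrtm1 and 60.0% for Nrxn3. The median over all promoters of the table was 52.4%. The Nlgn1 window not shown had 43.6%, and the Nrxn3 windows not shown had 45.6% and 46.8%. On both strands, the letters GGGCGG (GC box) were found 3 times in the Nlgn2 window and in none of the other 9, against 32.7% of 32841 promoters. The TATA box, spelled TATAAA, occurred in 1 of the 10 windows, upstream of Lrrtm4, against 12.4% of promoters, and TGANTCA (AP-1 site) in 1, upstream of a Nrxn3 start not shown, against 6.75%. TGACGTCA and its first 5 letters TGACG (cAMP response element), and CACGTG (E-box), were in none of the 10, against 1.55%, 17.8% and 6.02% of promoters. These matches describe letters only.

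The values are FPKM, fragments per kilobase of transcript, scaled to the size of the library. All 9 genes had at least 1 FPKM in all 4 libraries, so all 9 passed the filter used here, which was 1 FPKM in either library of a pair. The steps between low values put 1 fragment on 1 kb near 0.0847 FPKM with etoposide, 0.0711 in its control, 0.0554 with NMDA and 0.0523 in its control, for totals near 11.8 M, 14.1 M, 18.0 M and 19.1 M fragments. Of 6 neuron markers 5 were found, and all 5 stood at 1 FPKM or more in every library. Astrocyte markers were also present, with summed levels of 39.5 FPKM with etoposide against 76.6 FPKM in its control, and of 553 FPKM with NMDA against 579 FPKM in its control. Of 8 markers of the oligodendrocyte lineage, 1 reached 1 FPKM with etoposide and 2 in its control, while all 8 did with NMDA and in its control. Their summed level was 5.39 FPKM with etoposide against 20.6 FPKM in its control, and 190 FPKM with NMDA against 195 FPKM in its control. Most of the sum in the etoposide pair was Olig1, at 3.36 FPKM with etoposide against 16.6 FPKM in its control. Sox10 was listed at 0 with etoposide and at only 0.0582 FPKM in its control. Mog alone of the list was higher with etoposide, at 0.696 against 0.369 FPKM. No microglial marker of 4 reached 1 FPKM with etoposide or in its control, and 1 did with NMDA and in its control. Of 4 vascular markers, none reached 1 FPKM with etoposide and 1 in its control, Acta2 of smooth muscle, at 0.0944 FPKM with etoposide against 4.61 FPKM in its control. The part of these cells in the results was not tested.

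Nrxn2 was the most abundant of the 9 genes in every library. It had 14.7 FPKM with etoposide, 34.5 FPKM in the etoposide control, 117 FPKM with NMDA and 109 FPKM in the NMDA control. In the etoposide control the order continued with Nlgn2, Nlgn3, Lrrtm1, Nlgn1, Nrxn3, Lrrtm2, Lrrtm3 and Lrrtm4. In all 4 libraries the lowest levels were those of the LRRTM genes other than Lrrtm1. In the etoposide control, neighbours whose counting intervals (exact, 95%, for counting error only) held a ratio of 1 were Nlgn3 with Lrrtm1, Lrrtm1 with Nlgn1, and Lrrtm3 with Lrrtm4. With etoposide they were Nlgn1 with Nrxn3, Nrxn3 with Lrrtm2, and Lrrtm4 with Lrrtm3. With NMDA the interval of Lrrtm1 over Nlgn1 held 1, and in the NMDA control those of Lrrtm4 over Lrrtm2 and of Lrrtm2 over Lrrtm3. Nlgn3 stood above Nlgn2 with NMDA and in the NMDA control, and below it with etoposide and in the etoposide control. Lrrtm1 was the main LRRTM, with 56.4% of the summed FPKM of the 4 genes with etoposide, 56.1% in its control, 51.3% with NMDA and 53.8% in its control.

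**Figure D1:**
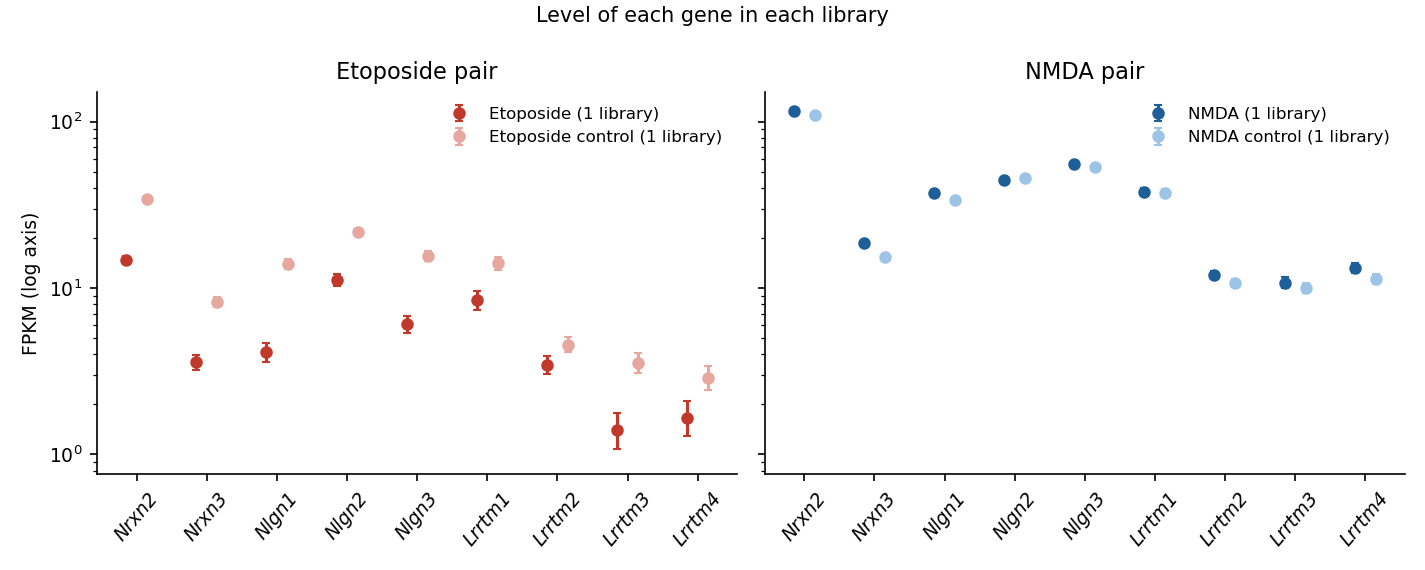
FPKM (log axis) of the 9 genes in the 4 libraries, with each treated library left of its control; points are single libraries and bars are approximate 95% counting intervals. The 9 etoposide points lie below their control points, from Nrxn2 at 14.7 against 34.5 FPKM to Lrrtm3 at 1.40 against 3.55 FPKM, while the NMDA points lie close to theirs.

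All 9 genes had lower FPKM with etoposide than in its control, as did 76.7% of all genes compared. The reduction was at least 2-fold for Nlgn1, Nlgn3, Nrxn2 and Nrxn3, 4 of the 9, on the log2(FPKM + 1) scale, where 7.36% of the 10681 genes compared were at least 2-fold lower and 0.477% at least 2-fold higher. The median log2 fold of the 9 was -0.93, against -0.32 for all genes, so most genes were lower and values relative to that median are given as well. Relative to it the 9 genes had a median of -0.60 and a range of -1.22 to -0.0031, and all 9 lay below it, as 50% of genes do by construction. Median scaling multiplied the etoposide library by the median FPKM ratio of its control to it over the genes compared. With it, 1 of the 9, Nlgn1, was at least 2-fold lower, where 2.08% of genes were at least 2-fold lower and 1.76% higher. With 1 bulk library a group, fewer neurons and less RNA per neuron cannot be told apart. The neuronal marker list was lower too, with a summed level of 210 FPKM with etoposide against 383 FPKM in its control, and its part in the result was not tested.

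Among the neuroligins, Nlgn1 had the largest difference of the 9 genes. Nlgn1 (chr3:25330763-26230831, minus strand, 6 exons in its longest coding transcript) had 4.11 FPKM with etoposide, against 13.9 FPKM in the etoposide control. Its level was thus 3.38-fold lower, and the counting interval, resting on about 210 and 846 fragments, ran from 2.90 to 3.95. Its log2 fold of -1.54 was lower than those of all but 0.796% of genes. Among genes at 1 FPKM or more, Nlgn1 stood at percentile 50.3 of level with etoposide, against percentile 81.4 in the etoposide control, 80.7 with NMDA and 79.4 in the NMDA control. Its rank was thus lower in the etoposide library than in the other 3.

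Nlgn3 and Nlgn2 were lower as well, to unequal degrees. Nlgn3 (chrX:98494520-98516689, plus strand) had 6.04 FPKM with etoposide, against 15.6 FPKM in its control, and was 2.58-fold lower (interval 2.26 to 2.97). Nlgn2 (chr11:69636625-69648351, minus strand) had 11.2 FPKM with etoposide, against 21.6 FPKM in its control, a ratio of 0.517 (interval 0.472 to 0.567). Some 6.80% of the annotated exon bases of Nlgn3 are shared with Med12 on the same strand, and reads there are uncertain.

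The make-up of the neuroligin group therefore differed between the etoposide library and its control. A ratio of genes within a library does not depend on how that library was scaled. Nlgn1 stood at 0.368 of the Nlgn2 level with etoposide (interval 0.313 to 0.430), against 0.643 in its control (interval 0.591 to 0.700), and the ratio of these was 0.572 (approximate interval 0.479 to 0.682). Nlgn1 supplied 19.3% and Nlgn2 52.4% of the summed neuroligin FPKM with etoposide, against 27.2% and 42.3% in the control. For Nlgn3 over Nlgn2 the values were 0.541 with etoposide and 0.723 in the control, a ratio of 0.748 (interval 0.636 to 0.881). Markers of excitatory neurons (4 genes) summed to 42.4 FPKM with etoposide against 81.3 FPKM in its control, and those of inhibitory neurons (5 genes) to 33.5 FPKM with etoposide against 51.8 FPKM in its control. Their part in the neuroligin ratios was not tested.

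These ratios differed between the controls as well. Nlgn3 over Nlgn2 was 1.16 in the NMDA control and 0.723 in the etoposide control, a ratio of 1.61 (interval 1.47 to 1.77) that is farther from 1 than that with etoposide. Nlgn1 over Nlgn2 was 0.739 in the NMDA control and 0.643 in the etoposide control, a ratio of 1.15 (interval 1.04 to 1.26), closer to 1 than that with etoposide. The Nlgn1 to Nlgn2 value of 0.368 with etoposide lay below both controls. For Nlgn1 over Nlgn3 this did not hold, with 0.68 with etoposide, 0.89 in its control and 0.63 in the NMDA control. The ratio for that pair was 0.764 with etoposide (interval 0.624 to 0.935). Between the controls it was 0.713 (interval 0.641 to 0.793), farther from 1.

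**Figure D2:**
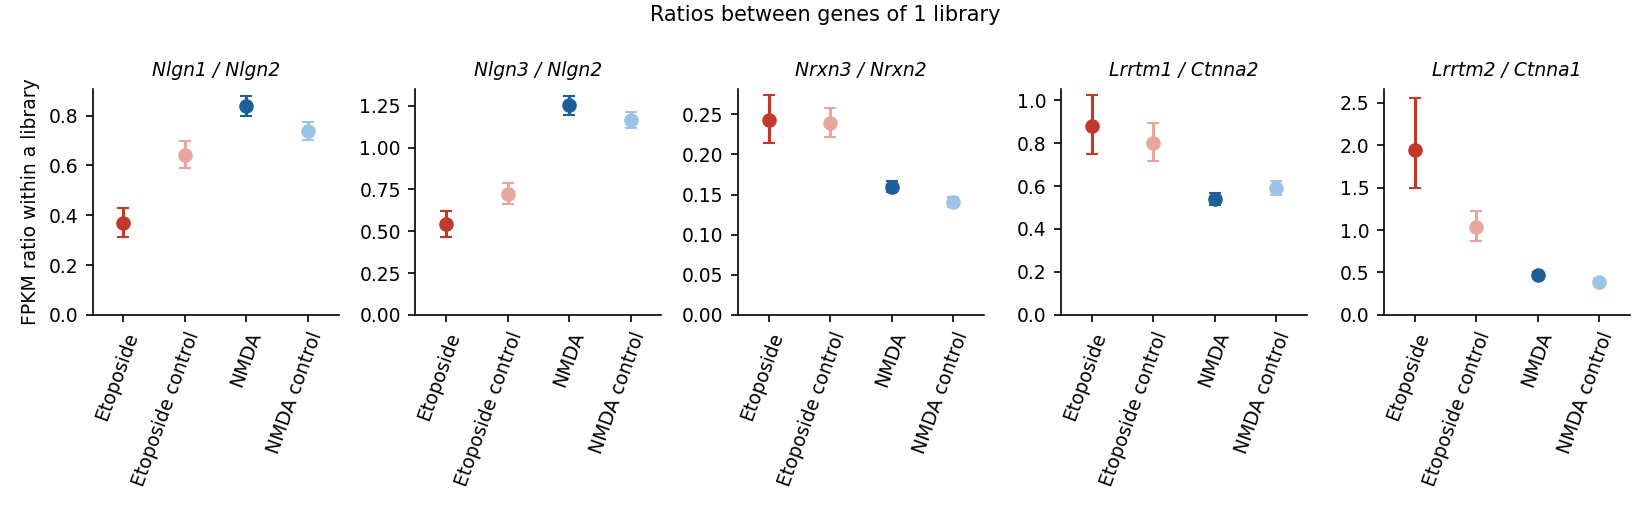
FPKM ratio between 2 genes of the same library for 5 gene pairs, in the 4 libraries, with approximate 95% counting intervals. The etoposide value for Nlgn1 over Nlgn2, 0.368, is the lowest of the 4 libraries, Nrxn3 over Nrxn2 is nearly equal with etoposide and in its control (0.243 and 0.239), and Lrrtm2 over Ctnna1 differs most between the controls.

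Both neurexins were lower with etoposide, by like amounts. Nrxn2 (chr19:6418738-6533217, plus strand, 23 exons) had 14.7 FPKM with etoposide, against 34.5 FPKM in its control, a ratio of 0.426 (interval 0.398 to 0.456). Nrxn3 (chr12:89961320-91573373, plus strand, 20 exons) had 3.57 FPKM with etoposide, against 8.25 FPKM in its control, a ratio of 0.433 (interval 0.381 to 0.491). Both passed the 2-fold rule, at log2 folds of -1.18 for Nrxn2 and -1.02 for Nrxn3, but the authors' deposited table lists neither. Nrxn3 over Nrxn2 was 0.243 with etoposide and 0.239 in the control, a ratio of 1.02 whose interval of 0.882 to 1.17 holds 1. These genes thus stood in nearly the same proportion in both libraries, with listed spans of 1612.1 kb for Nrxn3 and 114.48 kb for Nrxn2. The same proportion was 0.141 in the NMDA control, so it differed more between the controls than with etoposide. For Nrxn2, annotated exons on the opposite strand share 4.84% (Slc22a12), 1.50% (Gm14964) and 0.934% (Gm14967) of its exon bases.

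No LRRTM reached the 2-fold rule with etoposide, though all 4 were lower as deposited. Lrrtm3 (3 exons) had 1.40 FPKM with etoposide, against 3.55 FPKM in its control, which is 2.55-fold lower (interval 1.92 to 3.45, with about 64 and 195 fragments behind it). Its log2 fold was -0.93, since the added 1 FPKM compresses folds of low genes, and -1.29, past 2-fold, with 0.1 FPKM added instead. Lrrtm4 had 1.67 FPKM with etoposide against 2.89 FPKM in its control (ratio 0.576, interval 0.427 to 0.762), and Lrrtm1 had 8.43 FPKM against 14.1 FPKM (ratio 0.598, interval 0.512 to 0.697). Lrrtm2 was the nearest to its control, at 3.45 FPKM with etoposide against 4.58 FPKM, a ratio of 0.754 (interval 0.637 to 0.892). The median ratio of all genes, 0.747, lies within that interval, and its log2 fold relative to all genes was -0.0031, or 0.01 with median scaling.

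The authors' deposited table holds 3 of the 9 genes, Nlgn1, Nlgn3 and Lrrtm3, all as lower with etoposide. It lists 680 of the 22440 genes as lower (3.03%) and 12 as higher (0.0535%). No source used here gives the rule behind that list. Its values come from the same libraries, so a gene's place in it is not independent support.

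**Figure D3:**
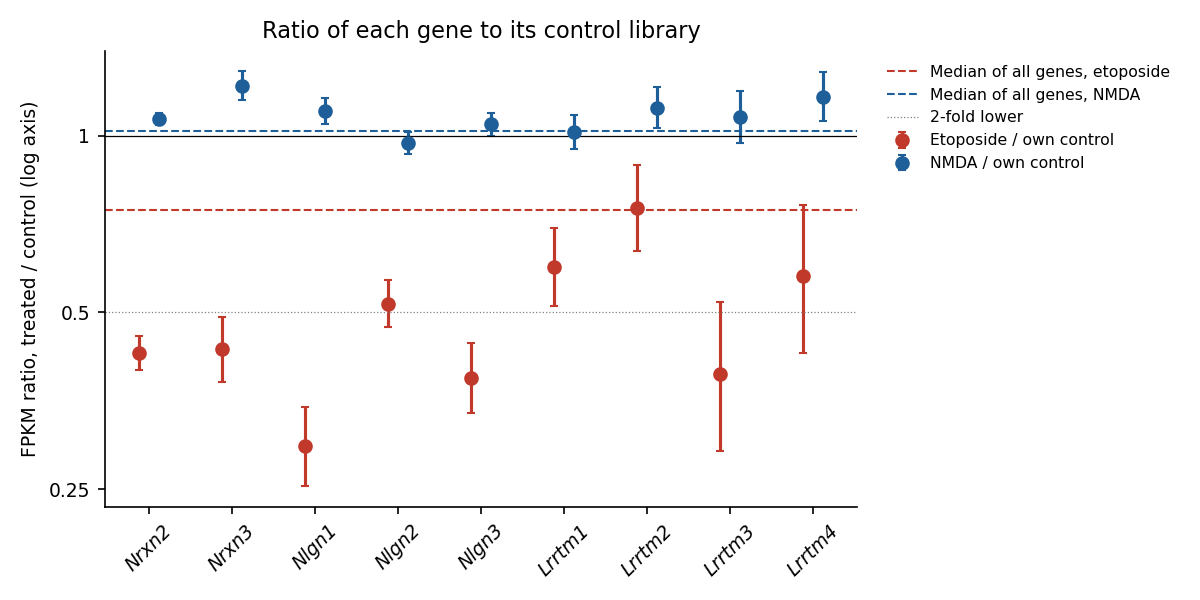
FPKM ratio of each of the 9 genes to its own control library (log axis) with approximate 95% counting intervals, for etoposide and NMDA, beside the median ratio of all genes compared (dashed). Ratios with etoposide run from 0.296 for Nlgn1 to 0.754 for Lrrtm2, where the median of all genes is 0.747, and ratios with NMDA from 0.972 for Nlgn2 to 1.22 for Nrxn3.

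The spans in the tables needed care for the LRRTM genes. In the annotation of the same build (GENCODE vM1), Lrrtm1 lies inside intron 8 of Ctnna2, Lrrtm2 inside intron 7 of Ctnna1 and Lrrtm3 inside intron 7 of Ctnna3, each on the opposite strand. These hosts encode alpha-catenins, which link cadherin adhesion to the actin cytoskeleton. The tables give each of the 3 LRRTM genes the locus of its host. The listed span is 1098 kb for Lrrtm1, whose own gene spans 15.1 kb (chr6:77192683-77207785). For Lrrtm2 the listed span is 135.86 kb and the own span 6.01 kb (chr18:35368665-35374678), and for Lrrtm3 they are 1573.6 kb and 161.81 kb (chr10:63391220-63553025). Lrrtm4 has the opposite mismatch, with a listed span of 6.06 kb (chr6:79968871-79974926) and an annotated gene of 791.27 kb.

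Set against genes of like listed span, the neuroligins and Nrxn2 lay on the low side with etoposide. The 2878 genes of 10 to 30 kb had a median log2 fold 0.10 above that of all genes, and 3.20% of them were at least 2-fold lower. Nlgn2 and Nlgn3, which span 11.7 kb and 22.2 kb, stood at -0.57 and -0.92 on that relative scale. Both short neuroligins were thus below the lower quartile of their span class, which was -0.16. In the 249 genes of 300 to 1000 kb the relative median was -0.59 and 41.4% were at least 2-fold lower, and Nlgn1 was at -1.22, below the lower quartile of -0.87. In the 955 genes of 100 to 300 kb the relative median was -0.41, with 24.6% at least 2-fold lower, and Nrxn2 was at -0.85, below the quartile of -0.67. Nrxn3, at -0.69, lay within the quartiles of the 21 genes over 1000 kb, -0.82 to -0.45.

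By its own span, Lrrtm2 belongs to the class under 10 kb (relative median 0.22, lower quartile -0.07) and lay within its quartiles at -0.0031, whereas it lay above the upper quartile, -0.17, of the 100 to 300 kb class of its listed span. Lrrtm1, at -0.36, lay below the lower quartile of the 10 to 30 kb class by its own span and above the upper quartile of the class over 1000 kb by its listed span. Lrrtm4, at -0.22, lay below the quartiles of the class under 10 kb by its listed span and above those of the 300 to 1000 kb class, -0.87 to -0.31, by its annotated span. The place of these genes among genes of like length therefore depended on which span was used. Lrrtm3, at -0.60, lay within the quartiles of its class by either span.

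**Figure D4:**
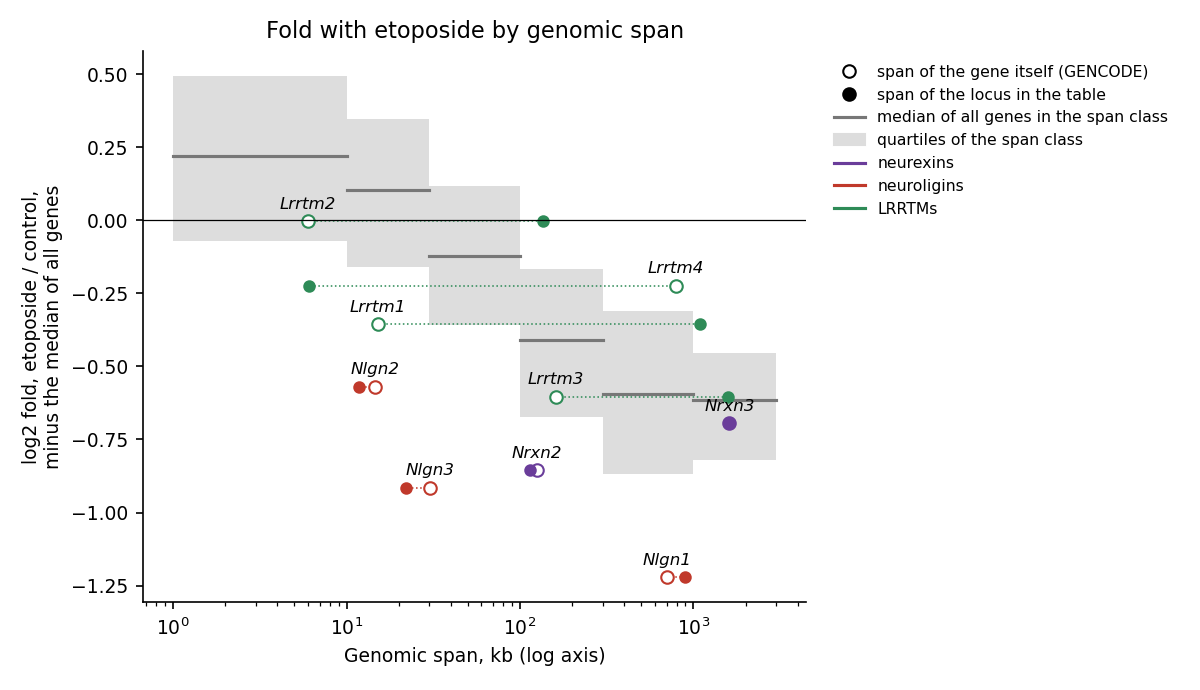
log2 fold with etoposide minus the median of all genes, against genomic span (log axis), for the 9 genes by the span of the gene itself (open) and of the locus in the table (filled), with median and quartiles of all genes with a locus of their own in 6 span classes. Nlgn1, Nlgn2, Nlgn3 and Nrxn2 lie below the grey quartiles of their class by either span, and Lrrtm1 and Lrrtm4 change sides between their spans.

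The alpha-catenin hosts allow a gene inside an intron to be set against the gene around it. Ctnna2, the neuronal alpha-catenin, had 9.60 FPKM with etoposide against 17.6 FPKM in its control, and Lrrtm1 over Ctnna2 was 0.878 with etoposide and 0.800 in the control, a ratio of 1.10 (interval 0.911 to 1.32). The interval holds 1, so no difference in proportion between Lrrtm1 and its host was detectable with etoposide at this depth. Lrrtm1 over Ctnna2 was 0.591 in the NMDA control, a ratio to the etoposide control of 0.739 (interval 0.655 to 0.832). With NMDA it was 0.538, a ratio to its own control of 0.910 (interval 0.844 to 0.983). Neither of these intervals holds 1. Ctnna1, the widely expressed alpha-catenin, had 1.77 FPKM with etoposide against 4.42 FPKM in its control, and Lrrtm2 over Ctnna1 was 1.95 with etoposide and 1.03 in the control, a ratio of 1.88 (interval 1.38 to 2.55). Between the control cultures the same proportion was 0.389 in the NMDA control and 1.03 in the etoposide control, a ratio of 0.376 (interval 0.314 to 0.450), a wider difference than with etoposide. Ctnna3, known from heart and testis, was near the lower limit, at 0.0374 FPKM with etoposide and 0.130 FPKM in its control, about 2 and 7 fragments, while Lrrtm3 inside it had 1.40 and 3.55 FPKM. No annotated exon base of Lrrtm1, Lrrtm2 or Lrrtm3 is shared with its host. The libraries were made from total RNA and no source used here says whether counting used strand, so unspliced host RNA over these exons cannot be told apart from LRRTM reads. For Lrrtm4, 25.1% of exon bases are shared with Gm4409 on the opposite strand.

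The 9 genes stood close to their control levels with NMDA. None differed by 2-fold in either direction, where 0.729% of 13028 genes were at least 2-fold lower and 0.438% at least 2-fold higher, and none is in the authors' deposited table for NMDA, which lists 0.169% of the 22440 genes as lower and 0.111% as higher. Of the 9, 8 had higher FPKM with NMDA, as did 57.2% of all genes, and the median log2 fold was 0.098 against 0.025 for all genes. Nrxn3 had the largest difference, at 18.7 FPKM with NMDA against 15.4 FPKM in its control, a ratio of 1.22 (interval 1.15 to 1.29), and 96.3% of genes had a lower log2 fold. Lrrtm4 had 13.2 FPKM with NMDA against 11.3 FPKM (ratio 1.17, interval 1.06 to 1.28), and Lrrtm2 had 12.0 FPKM against 10.8 FPKM (ratio 1.12, interval 1.03 to 1.21). Among the 25 genes spanning over 1000 kb, the median log2 fold with NMDA relative to all genes was 0.14 and the upper quartile 0.18, and Nrxn3 was above it at 0.24. Nlgn1, at 0.11, lay within the quartiles of the 303 genes of 300 to 1000 kb, 0.012 to 0.16. These ratios were small, and no replicate shows how far 2 like cultures differ.

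Nlgn1 and Nlgn2 lay on different sides of their control with NMDA. Nlgn1 had 37.4 FPKM with NMDA against 33.9 FPKM in its control (ratio 1.10, interval 1.05 to 1.16), and Nlgn2 had 44.6 FPKM against 45.9 FPKM (ratio 0.972, interval 0.931 to 1.01). Nlgn1 over Nlgn2 was 0.838 with NMDA and 0.739 in its control, a ratio of 1.13 (interval 1.06 to 1.21), about as far from 1 as between the controls. For Nlgn3 the levels were 55.9 FPKM with NMDA and 53.4 FPKM in its control, for Nrxn2 117 and 109 FPKM, for Lrrtm1 38.0 and 37.4 FPKM and for Lrrtm3 10.8 and 10.0 FPKM. The intervals of Lrrtm1, Lrrtm3 and Nlgn2 held a ratio of 1. Against the etoposide control with median scaling, 6 of the 9 genes were lower with NMDA and 3 higher, where 49.5% of genes were lower. Nrxn3, Nlgn1, Lrrtm2 and Lrrtm3 were higher against their own control with or without that scaling and lower there, while Nrxn2 (0.09), Nlgn3 (0.17) and Lrrtm4 (0.41) stayed higher and Nlgn2 (-0.58) stayed lower. Lrrtm1 was already just below 0 (-0.0054) against its own control once scaled.

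Between the control cultures, 8 of the 9 genes were at least 2-fold higher in the NMDA control than in the etoposide control, as were 75.1% of all genes, and 0.708% of genes were at least 2-fold lower. FPKM thus differed between the controls for most genes, with a median ratio of 3.12, and the source of this was not tested. Without scaling, all 9 were at least 2-fold lower with etoposide than in the NMDA control, as were 84.5% of all genes, and all 9 were at least 2-fold higher with NMDA than in the etoposide control, as were 76.5%. With the controls scaled to each other by their median ratio, the log2 folds of the 9 ran from -0.64 for Nrxn3 to 0.25 for Lrrtm4, with 6 below and 3 above 0. Against the NMDA control with median scaling, 7 of the 9 genes were lower with etoposide, where 50.6% of all genes were. Of the 9, 1 (Nlgn3) was at least 2-fold lower, against 11.3% of genes, and none at least 2-fold higher, against 5.74%. Nlgn3 (-1.03), Nlgn1 (-0.92), Nrxn2 (-0.79), Lrrtm3 (-0.66) and Lrrtm4 (-0.61) kept log2 folds well below 0 there, Lrrtm1 (-0.06), Nrxn3 (-0.01) and Nlgn2 (0.05) were close to 0, and Lrrtm2 was at 0.42. The low values of Nrxn3, Nlgn2 and Lrrtm1 with etoposide thus depended on which control culture was used.

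The partners of these proteins were described by 7 lists. Postsynaptic scaffolds were lower with etoposide as a list. Of 12 such genes, all lay below the median of all genes, as 50% of genes do by construction. Their median relative log2 fold was -0.57, and 5 were at least 2-fold lower. Shank2, a scaffold of excitatory synapses, had 3.25 FPKM with etoposide against 8.97 FPKM in its control. Dlg3 had 4.31 FPKM with etoposide against 10.6 FPKM, and both are listed as lower in the authors' deposited table. Dlg2 had 11.7 FPKM with etoposide against 25.9 FPKM. Dlg2 and Dlg3 belong to the PSD-95 family, whose PDZ domains bind neuroligin tails.

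On the presynaptic side, 2 of 8 neurexin scaffolds were at least 2-fold lower with etoposide, and their median relative log2 fold was -0.53. Syt1, the calcium sensor of release that neurexin tails bind, had 23.9 FPKM with etoposide against 62.2 FPKM, and Apba1 (Mint1) had 9.15 FPKM against 22.8 FPKM. Cask, a kinase-like scaffold, had 6.37 FPKM against 13.3 FPKM, and Apba2 (Mint2) had 14.2 FPKM against 26.6 FPKM. Lin7c stood apart with 27.9 FPKM with etoposide against 25.4 FPKM in the control. Other presynaptic organizer receptors had the lowest median, at -0.99, with 4 of 5 at least 2-fold lower. Gpc4, a heparan sulfate proteoglycan and LRRTM4 partner, had 1.65 FPKM with etoposide against 6.70 FPKM, and Ntrk3 had 4.24 FPKM against 12.0 FPKM. Both are in the authors' deposited table, whereas the receptor phosphatases Ptprd (8.98 FPKM against 23.9 FPKM) and Ptprf (5.39 FPKM against 12.4 FPKM) are not.

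Other ligands of neurexins were more mixed with etoposide. Of 13 symbols 12 were found and 10 passed the level filter, with 3 at least 2-fold lower and a median relative log2 fold of -0.42. Cbln4, a secreted cerebellin, had 0.730 FPKM with etoposide against 4.98 FPKM in its control, and Dag1 (dystroglycan) had 5.22 FPKM against 14.7 FPKM, both listed as lower in the authors' deposited table. The adhesion receptor Lphn1 had 17.0 FPKM against 38.2 FPKM and Clstn3 (calsyntenin) 14.0 FPKM against 28.1 FPKM. Cbln2 was the gene of this list above the all-gene median, at 2.21 FPKM with etoposide and 1.93 FPKM in the control, a gene singled out here after its value was seen, as was Lin7c.

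Of 13 other synaptic leucine-rich repeat genes that passed the filter (14 listed), 5 were at least 2-fold lower, with a median of -0.52. Lrfn5 had 3.81 FPKM with etoposide against 12.0 FPKM, Lrfn2 1.57 FPKM against 5.44 FPKM, Slitrk5 2.50 FPKM against 7.58 FPKM and Lrrc4c, a netrin-G ligand, 6.17 FPKM against 14.7 FPKM. All 4, named here for the size of their folds, are in the authors' deposited table, which lists 3.03% of all genes as lower. Of 6 regulators that passed (7 listed), 1 was at least 2-fold lower, with a median of -0.56. That was Mdga1, whose protein binds neuroligins and blocks neurexin, at 1.28 FPKM with etoposide against 4.81 FPKM. Its relative Mdga2 had 1.39 FPKM with etoposide against 3.57 FPKM, Adam10, a protease that sheds neurexins and neuroligins, had 2.80 FPKM against 6.13 FPKM, and Khdrbs3, a splicing factor of neurexin transcripts, had 13.3 FPKM against 25.0 FPKM. Shares past 2-fold in all lists are to be read against the 7.36% of all genes.

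With NMDA no partner gene of the 7 lists differed by 2-fold on the log2(FPKM + 1) scale. Medians relative to all genes were between 0.0030 for the 2 alpha-catenins that passed the filter and 0.12 for the regulators. Of the 12 postsynaptic scaffolds 11, and of the 8 presynaptic scaffolds 7, lay above the all-gene median, as 50% of genes do by construction. On the same scale all genes of 300 to 1000 kb had a median of 0.084, and those of 10 to 30 kb -0.012. The part of span in the list values was not tested. Shank1 had 34.3 FPKM with NMDA against 28.7 FPKM in its control, Dlg2 70.3 FPKM against 60.7 FPKM and Lrfn3 17.3 FPKM against 14.0 FPKM. Nxph4, a neurexophilin, had 0.485 FPKM with NMDA against 1.04 FPKM.

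**Figure D5:**
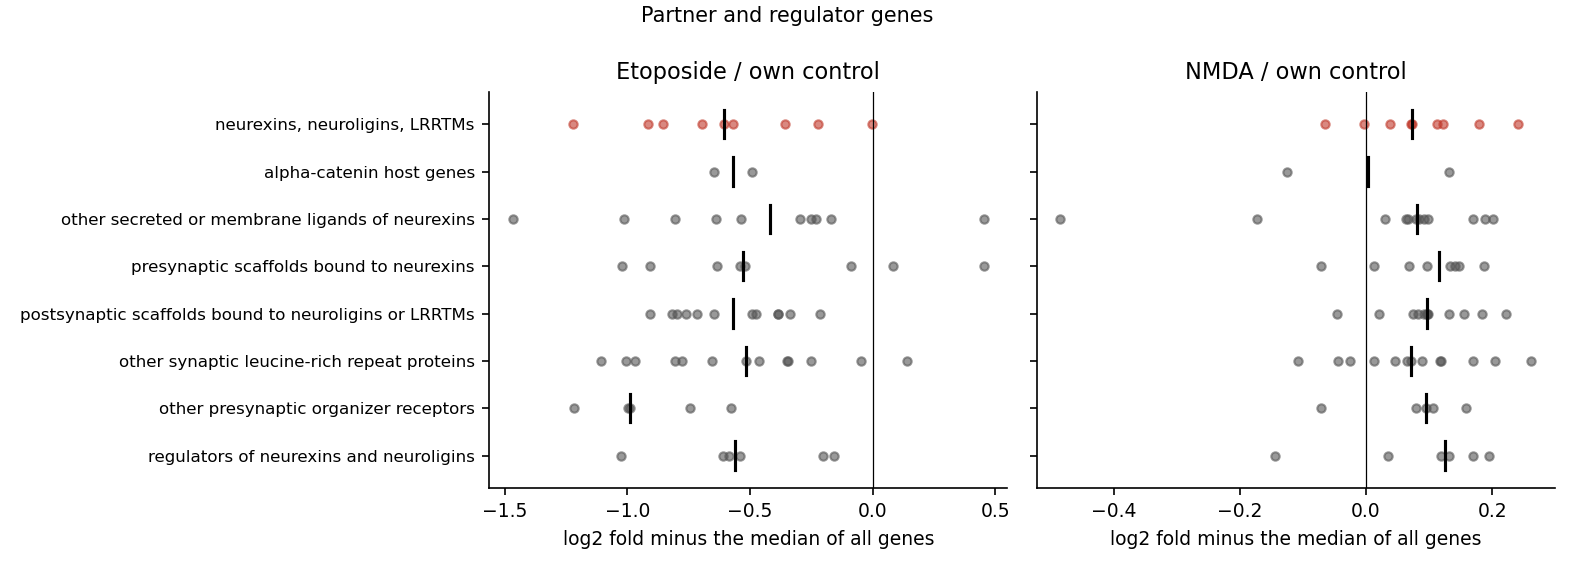
log2 fold minus the median of all genes for the 9 genes (red) and 7 lists of partner genes (grey), 1 point a gene, with list medians as black ticks, for etoposide and NMDA on separate horizontal scales. With etoposide the medians of all 8 rows are below 0, from -0.99 for the presynaptic organizer receptors to -0.42 for the other neurexin ligands, and with NMDA they lie between 0.0030 and 0.12.

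The pattern of Nlgn1 over the 4 libraries was most like that of Gas7, St6galnac5 and Kalrn, by Euclidean distance of log2(FPKM + 1) centred on each gene, among 9533 genes at 1 FPKM or more in all 4 libraries. Their distances were 0.0475, 0.0816 and 0.0874. Gas7, for instance, had 9.98 FPKM with etoposide, 29.8 FPKM in its control, 81.7 FPKM with NMDA and 74.0 FPKM in its control. Among the other 8 genes of the group, Nrxn2 came nearest to Nlgn1, at rank 178 (distance 0.329), then Nlgn3 at rank 233 (distance 0.368) and Lrrtm3 at rank 596 (distance 0.521), and Lrrtm2 was farthest, at rank 5351 (distance 1.15). The 4 libraries are the only points behind these distances, and the 2 pairs differ in the FPKM of most genes.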

How the data were processed

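RNA was measured in 4 libraries, 1 a group, grouped by sample title. The authors made the FPKM values, which were deposited per gene symbol and locus. Cufflinks 2.0.0, Cuffdiff, TopHat and Bowtie stand in the submitters' processing notes, without roles, along with BWA, Picard, HOMER and build mm9, and the kit was for total RNA with paired ends, per the labels' protocols. An FPKM depends on the library total used by the authors. The microRNA locus Mir5109 held 68.7% of the FPKM sum with etoposide, 76.5% in its control, 52.3% with NMDA and 51.9% in its control. The main comparisons were therefore within a pair, though this share differed within the etoposide pair too. Comparisons across pairs are given as well.

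Folds were log2((treated + 1)/(control + 1)) for genes at 1 FPKM or more in either library. The pseudocount of 1 FPKM understates folds of low genes. Ratios are plain FPKM ratios. Fragment numbers are FPKM times transcript length (GENCODE vM1) over the 1-fragment step read from single-exon genes, so they and their exact 95% intervals are approximate and cover counting error only. Starts have 1 added, since the tables count from 0. Span classes use genes with a locus of their own. The code for folds, filter and intervals was tested on simulated fragments. That simulation took the 1-fragment steps as given, so it did not test them or the fragment numbers. Python 3.11.15, numpy 2.4.6, pandas 2.3.3, scipy 1.17.1 and matplotlib 3.10.9 were used.

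The 9 genes, the partner lists and the markers were chosen with earlier results of these data known. Partner genes named are up to 4 a list and comparison by size of fold, beside the alpha-catenins and the 3 genes nearest in pattern to the gene with the largest fold, and 1 gene this rule names is not reported here. Promoter sequences are from RefSeq. Alternatives were another pseudocount, other level filters, median scaling and the other control.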

Additional observations from a re-analysis of the deposited data

How the results depend on the processing

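No paired analysis was possible because each group has 1 library. With etoposide, the count of genes at least 2-fold lower among the 9 (4) was 1 with median scaling, where 2.08% of all genes were at least 2-fold lower and 1.76% higher. With a pseudocount of 0.1 FPKM the count was 5, since Lrrtm3 (-1.29) passed as well. The share of all genes at that pseudocount is not given here. The count also moved with the control used. It was 9 against the other control, where 84.5% of all genes were at least 2-fold lower, and 1 against that control with median scaling, where 11.3% of genes were at least 2-fold lower and 5.74% higher. The median log2 fold of the 9 (-0.93) was -1.18 with a pseudocount of 0.1 FPKM, -0.67 with median scaling, -2.20 against the other control (all genes -1.67) and -0.61 against it with median scaling. It stayed below that of all genes in each of these. With a pseudocount of 0.1 FPKM, 8 of the 9 lay below the all-gene median and Lrrtm2 just above it. With NMDA, where none of the 9 was past 2-fold, all 9 were at least 2-fold higher against the other control, as were 76.5% of all genes, and the median (0.098) was 1.37 against that control (all genes 1.35) and -0.22 with median scaling added. Between the control cultures, the count of 8 was 0 with median scaling, and the median (1.27) was 1.40 with a pseudocount of 0.1 FPKM and -0.21 with median scaling, where Nrxn3 (-0.64), Nlgn1 (-0.33), Nlgn2 (-0.52), Lrrtm1 (-0.21), Lrrtm2 (-0.32) and Lrrtm3 (-0.11) took the opposite sign. FPKM of most genes differed between the controls, by a median ratio of 3.12. Requiring 5 FPKM left out Lrrtm2, Lrrtm3 and Lrrtm4 with etoposide. Depth limits Lrrtm3 and Lrrtm4 most, at about 64 and 73 fragments with etoposide.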
